A study of Mus musculus with 32 samples.

Results

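Mature miRNAs were compared between hippocampal cultures treated with DHPG and with DMSO, using 10 of the 32 samples of the series. DHPG activates mGluR1 and mGluR5, the Gq-coupled metabotropic glutamate receptors that make up group I. Hippocampi of P0 mouse pups were kept in culture to DIV 16 and then received 30 µM DHPG (6 libraries) or an equal volume of the solvent DMSO (4 libraries) for 30 min. No strain, sex or genetic change is stated for these samples, and the libraries are whole cultures labelled as neurons. The labels do not say whether replicates came from separate cultures or litters, so p-values measure only the spread between these libraries, which may be technical. All mature miRNAs of the count table were taken: 1963 are listed, 1363 had a count in at least 1 of the 10 libraries, and 535 passed the filter on low counts and were tested. These 535 held 99.96% of the counts.

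A miRNA is cut from a hairpin precursor, each arm of which (5p or 3p) can be loaded into an Argonaute protein. Bases 2 to 8 of the mature strand, the seed, pair with target mRNAs and lower their translation or stability, and miRNAs with 1 seed form a family. In neurons, group I mGluR signalling drives local protein synthesis and long-term depression, and miRNAs bound with FMRP at synapses are among the known regulators of that synthesis. Mature miRNAs are stable in most cells, though some turn over quickly in active neurons.

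The sequences of the miRNAs on which the results turn are given here, from RefSeq on GRCm38.p6, 5′ to 3′ with the seed in capitals. In all, 471 of the 535 miRNAs tested matched a mature RefSeq sequence by name. The first 4 share the seed GGCAGUG and belong to the miR-34 and miR-449 family. Together they had the lowest median fold change of the 13 seed families with at least 3 tested members that matched a sequence. MiR-34c-5p had no matching sequence and is not among them.
miR-34a-5p: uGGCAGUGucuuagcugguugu
miR-34b-5p: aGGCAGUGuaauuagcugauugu
miR-449a-5p: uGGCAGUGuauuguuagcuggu
miR-449c-5p: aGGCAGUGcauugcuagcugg
The next 5 each have a seed of their own. They include miRNAs for which every DHPG library lay below every DMSO library, together with miR-135a-5p, the partner arm of one of them.
miR-448-3p: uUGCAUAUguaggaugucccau
miR-1298-5p: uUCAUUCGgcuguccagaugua
miR-135a-5p: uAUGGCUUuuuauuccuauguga
miR-1251-5p: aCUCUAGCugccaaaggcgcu
miR-592-5p: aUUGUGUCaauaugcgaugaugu
The last 3 are abundant miRNAs with a higher mean in DHPG.
miR-127-3p: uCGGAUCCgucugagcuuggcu
miR-541-5p: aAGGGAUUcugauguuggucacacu
miR-191-5p: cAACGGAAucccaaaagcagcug

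The miRNA libraries held 2025252 to 4909061 counts. The 10 libraries did not separate by treatment. Total RNA libraries of the same treatment and number form a deep set, with more than 30000000 counts (DMSO 2 to 4 and DHPG 6), and a shallow set (DMSO 1 and DHPG 1 to 5). The sets also differ in mitochondrial rRNA, at 10.8% to 18.7% in the deep and 1.47% to 2.87% in the shallow total RNA libraries. The labels share only the numbers between the assays, so this split is carried to the miRNA libraries by number. The set names do not describe miRNA depth, as shallow DHPG 1 had 4259490 miRNA counts and deep DHPG 6 had 3394195. The first principal component of the miRNA data carried 51.6% of the variance. DMSO 2 to 4 lay between 7.80 and 11.3 on it and DHPG 6 at 5.19, while DMSO 1 lay at -5.90 among DHPG 2 to 5 (-7.78 to -5.64) and DHPG 1 lay at 0.28. Across the 535 miRNAs DMSO 1 correlated best with DHPG 2 (r = 0.993) and DHPG 6 with DMSO 3 (r = 0.994), a description over miRNAs measured in shared libraries. Fold changes below are therefore given for many miRNAs also within each set or with a term for the set in the fit.

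**Figure D1:**
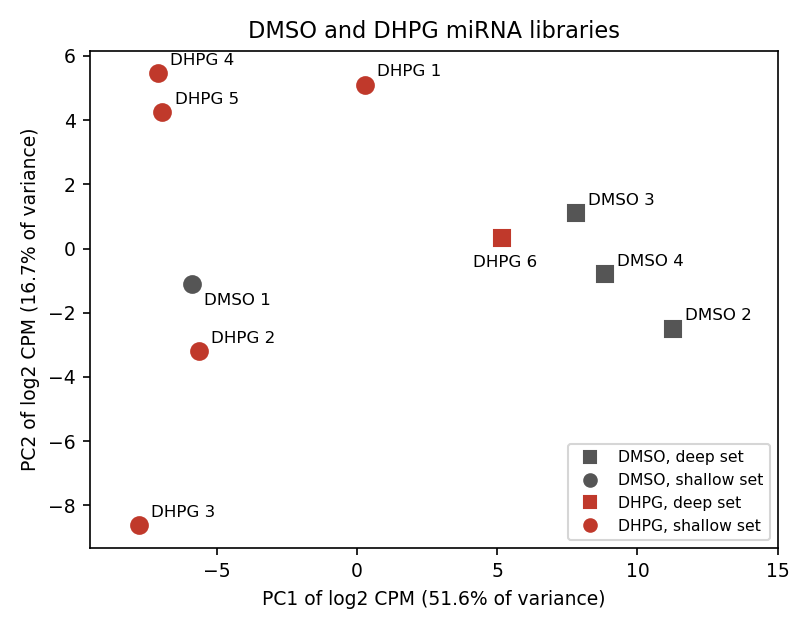
First and second principal components of log2 CPM (counts scaled to a library total of 1000000) over the 535 miRNAs, 1 point per library, coloured by treatment, with squares for the deep and circles for the shallow set. DMSO 1 sits among the shallow DHPG libraries and DHPG 6 beside the deep DMSO libraries.

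No miRNA passed in the comparison of DHPG with DMSO. With the edgeR quasi-likelihood test 0 of 535 (0%) had an adjusted p under 0.05, and the smallest adjusted p was 0.203. At an unadjusted p under 0.05 there were 81 (15.1%), of which 28 (5.23%) were higher and 53 (9.91%) lower in DHPG. Most fold changes were small, with a median size of 0.22 log2 units. A log2 fold change under -1 was found for 15 miRNAs and over 1 for 2, miR-1969 and miR-210-5p. The median over all 535 was -0.02, with 256 above and 279 below 0.

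In the authors' deposited table, of 768 miRNAs with an adjusted p, 6 (0.781%) pass the same limit, and all 6 are lower: miR-448-3p, miR-34c-5p, miR-483-3p, miR-3105-3p, miR-1298-5p and miR-135a-5p. The DESeq2 Wald test run here called the same 6, of 781 with an adjusted p (0.768%). Of these, 4 were among the miRNAs tested with edgeR. The others fell under its filter, with raw counts for miR-483-3p of 5, 41, 19 and 6 in DMSO 1 to 4 and 0 to 4 in DHPG. Counts for miR-3105-3p were 6, 36, 34 and 30 in DMSO and 0 to 9 in DHPG, so DMSO 1 lay within the DHPG range for the second and above it for the first. Limma-voom with sample quality weights called 142 (26.5%), 57 higher and 85 lower, and gave the lowest weight of all libraries to DMSO 1 (0.377) and the second lowest to DHPG 6 (0.521). EdgeR called 56 without DMSO 1, a fit in which the DMSO group is wholly deep and 5 of 6 DHPG libraries are shallow, so that only DHPG 6 shares its set with DMSO.

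The 2 library sets give comparisons that share no library: DHPG 6 against DMSO 2 to 4, and DHPG 1 to 5 against DMSO 1. Over the 535 miRNAs the differences in mean log2 CPM in the deep and shallow sets correlated at r = 0.061 (Spearman 0.080), and 284 (53.1%) had the same sign. Over the 308 miRNAs with an average log2 CPM of at least 5 the correlation was 0.118 (Spearman 0.055). Each of these comparisons has a single library on 1 side, so the spread on that side is not measured. Every DHPG library lay beyond every DMSO library of its own set for 24 miRNAs on the lower side (4.49%) and 18 on the higher side (3.36%). With the library-set term edgeR called 0, the smallest adjusted p was 0.999, and 19 (3.55%) had an unadjusted p under 0.05, 5 higher (0.935%) and 14 lower (2.62%).

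**Figure D2:**
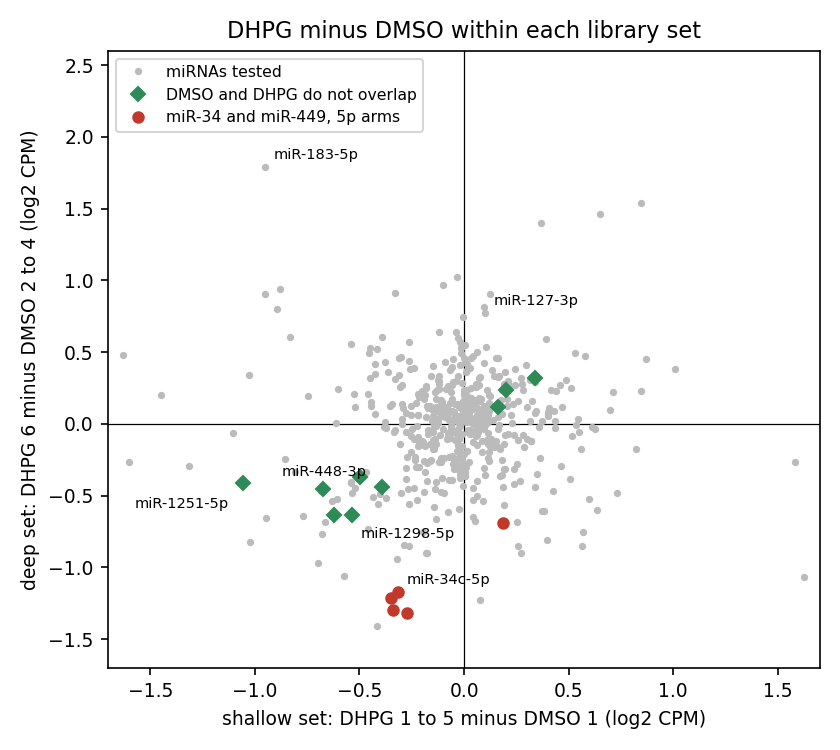
Difference in mean log2 CPM between DHPG and DMSO in the shallow set (x axis) and in the deep set (y axis), 1 point per miRNA tested. The points as a whole have r = 0.061. The 9 miRNAs whose groups did not overlap lie at the lower left and upper right, which follows from how they were picked. The miR-34 and miR-449 strands lie low on the y axis.

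Across all 10 libraries DMSO and DHPG did not overlap for 9 miRNAs. Lower in every DHPG library were 6 of 535 (1.12%): miR-448-3p, miR-1298-5p, miR-1251-5p, miR-135a-2-3p, miR-592-5p and miR-410-5p. Higher in every DHPG library were 3 (0.561%): miR-138-2-3p, miR-27b-5p and miR-425-5p. Each of the 9 missed the adjusted limit.

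Of the lower ones, miR-448-3p and miR-1298-5p lie in the gene of the serotonin receptor 2C, Htr2c, whose introns carry a row of miRNA hairpins (GRCm38.p6, chrX:146962464-147197277). The miR-448-3p strand, at chrX:147158281-147158302, had 38.2, 45.7, 53.2 and 45.1 CPM in DMSO 1 to 4. In DHPG 1 to 6 it had 18.7, 32.1, 23.0, 23.0, 23.6 and 34.9 CPM. The lowest DMSO library, DMSO 1, still lay above the highest DHPG library, DHPG 6. Its log2 fold change was -0.82 ± 0.19 (SE; adjusted p = 0.203), with differences of -0.45 in the deep and -0.67 in the shallow set and -0.57 with the set term.

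The miR-1298-5p strand, at chrX:147064918-147064939, had 238, 332, 298 and 288 CPM in DMSO 1 to 4. In DHPG 1 to 6 it had 108, 171, 217, 164, 179 and 197 CPM, all below the lowest DMSO library. Its log2 fold change was -0.74 ± 0.18 (adjusted p = 0.203), with -0.63 in the deep set, -0.54 in the shallow set and -0.57 with the set term. As no DHPG library reached a DMSO library, both strands were necessarily lower in DHPG within either set.

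Other products of the Htr2c hairpins had smaller fold changes in the fit to all libraries. The opposite arm miR-1298-3p had 61.5 ± 16.2 CPM in DMSO and 69.7 ± 15.8 in DHPG (SD; log2 fold change 0.18 ± 0.22, or 0.37 with the set term). The opposite arm miR-448-5p, near the filter, had 3.74 ± 0.76 and 3.68 ± 1.37 CPM (0.02 ± 0.29, or -0.16 with the set term). Values for the other members tested were -0.26 ± 0.22 for miR-764-3p, -0.26 ± 0.25 for miR-3552 and -0.04 ± 0.31 for miR-1264-3p. With the set term these were -0.06, -0.00 and -0.47. The differences between arms were not tested. Htr2c mRNA in the total RNA libraries ranged from 6.04 to 12.3 CPM in DMSO and from 5.27 to 13.1 in DHPG, so the host transcript overlapped between groups.

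Further members without overlap come from chromosome 10. The miR-1251-5p strand lies within the long noncoding RNA gene Rmst (chr10:92081746-92165178), a transcript of neural progenitors, and miR-135a-2-3p comes from a hairpin outside the annotated Rmst span (chr10:92072104-92072124). The former had 6.06, 8.04, 6.96 and 4.97 CPM in DMSO 1 to 4 and from 1.25 to 4.78 CPM in DHPG, with a median of 2.86 (-1.07 ± 0.31, adjusted p = 0.208). The latter had 24.3, 41.0, 24.4 and 24.7 CPM in DMSO and from 11.4 to 22.9 CPM in DHPG, with a median of 16.7 (-0.80 ± 0.23, adjusted p = 0.207). Set differences for miR-135a-2-3p were alike, -0.63 in the deep and -0.62 in the shallow set. For miR-1251-5p, at 53 counts in all of DHPG, they were -0.41 and -1.06. Rmst itself had 11.5 to 20.9 CPM in the DMSO and 7.53 to 11.96 in the DHPG total RNA libraries, so this host transcript overlapped between groups.

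The mature strand miR-135a-5p can come from 2 hairpins, 1 on chromosome 9 and 1 on chromosome 10. It had 50.3, 102, 91.1 and 67.5 CPM in DMSO 1 to 4 and 22.5 to 51.4 CPM in DHPG, with a median of 43.3 (-0.96 ± 0.24, adjusted p = 0.203). Only DHPG 6 (51.4 CPM) and DMSO 1 (50.3 CPM) crossed, and with the set term the difference was -0.58. The opposite arm of the chromosome 10 hairpin, miR-135a-2-3p, was lower as given above, and that of the chromosome 9 hairpin, miR-135a-1-3p, had a log2 fold change of 0.25 ± 0.25 (0.57 with the set term).

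The remaining pair of lower miRNAs without overlap had small differences. The miR-592-5p strand, in the gene of the group III receptor mGluR8, Grm8 (chr6:27275121-28135146), had 14.6, 14.7, 12.5 and 16.1 CPM in DMSO 1 to 4. In DHPG it ranged from 9.11 to 11.4 CPM with a median of 10.4 (-0.48 ± 0.16, adjusted p = 0.214). Both sets gave a similar difference, -0.37 and -0.50. For miR-410-5p, the minor arm of a Dlk1-Dio3 hairpin, values were 6.04 ± 0.31 CPM in DMSO and 4.68 ± 0.42 in DHPG (-0.37 ± 0.19, adjusted p = 0.358).

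**Figure D3:**
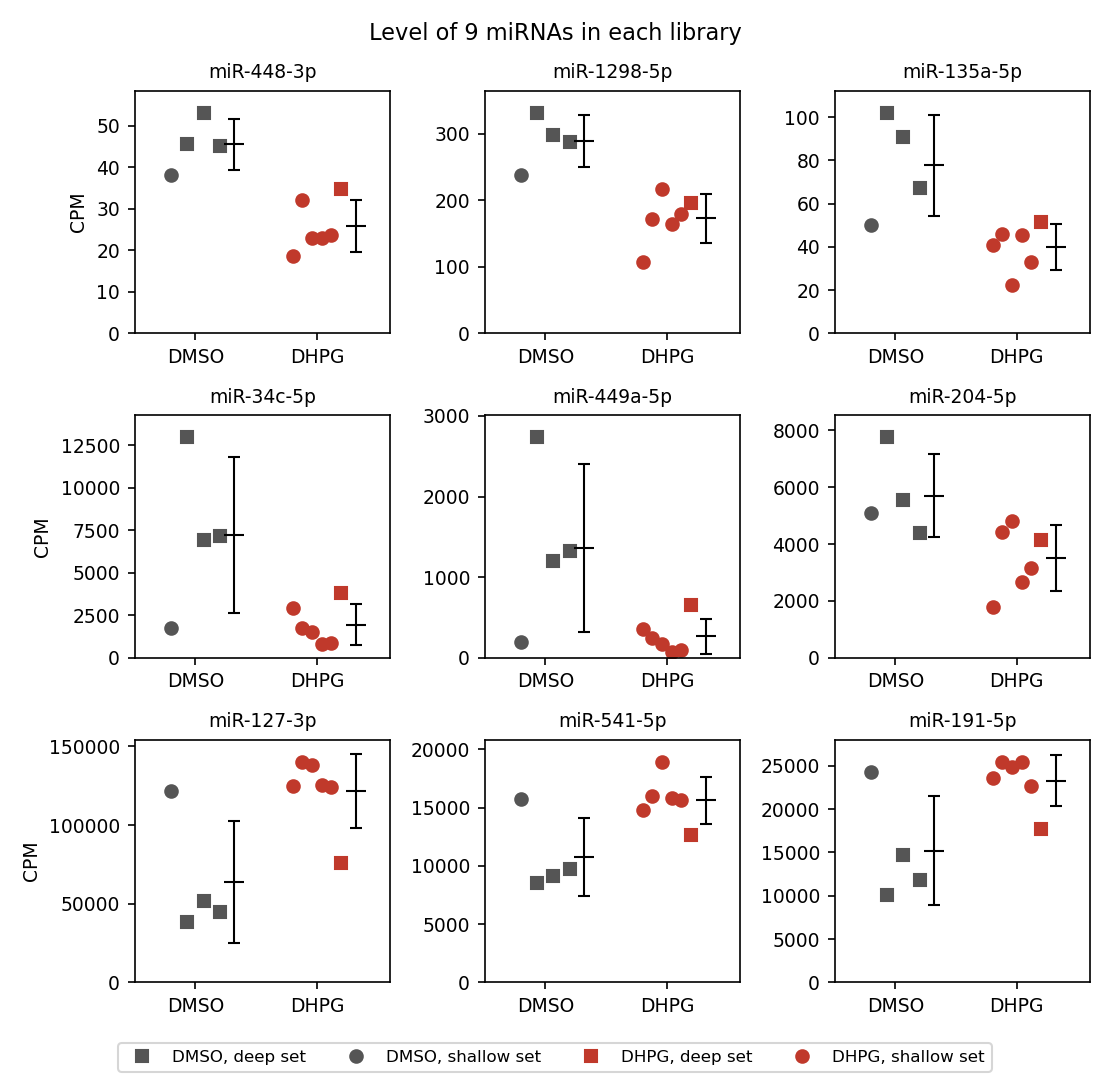
Level in CPM of 9 miRNAs in each of the 4 DMSO and 6 DHPG libraries, with squares for the deep and circles for the shallow set and a bar for the mean ± SD beside each group. The groups stand apart for miR-448-3p and miR-1298-5p, while for miR-34c-5p, miR-449a-5p, miR-127-3p and miR-191-5p DMSO 1 lies at the level of the shallow DHPG libraries.

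Of the 535 miRNAs tested, the lowest fold changes belonged to the miR-34 and miR-449 family, which multiciliated cells use to build their cilia. In the DESeq2 Wald test, which kept scarcer miRNAs, miR-483-3p was lower still at -3.22. In the brain multiciliated cells line the ventricles as ependyma, next to the epithelium of the choroid plexus. The 4 family members with a sequence above had a median log2 fold change of -2.21, from -2.52 for miR-449c-5p to -0.75 for miR-34a-5p, against -0.02 for all miRNAs tested. Each of the 4 had an unadjusted p under 0.05 (9.91% of the table on that side), and none passed after adjustment. MiR-449a and miR-449c lie in the gene Cdc20b on chromosome 13, miR-34b and miR-34c in 1 cluster on chromosome 9, and miR-34a alone on chromosome 4.

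The most abundant of this group was miR-34c-5p, with 1758, 12974, 6925 and 7151 CPM in DMSO 1 to 4. In DHPG 1 to 6 it had 2906, 1743, 1537, 804, 903 and 3821 CPM. DMSO 1 lay inside the DHPG range and the other 3 DMSO libraries above all of it (-1.88 ± 0.56, adjusted p = 0.214). The difference was -1.17 within the deep set and -0.31 within the shallow set, and -0.67 with the set term (unadjusted p = 0.28 in edgeR).

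Its relative miR-449a-5p showed the same order of libraries, with 194, 2737, 1203 and 1324 CPM in DMSO 1 to 4. In DHPG it ranged from 71.1 to 655 CPM, highest in DHPG 6 (-2.35 ± 0.73, adjusted p = 0.214; -0.71 with the set term). Over the 4 family members with a sequence above, which leave out miR-34c-5p, the median difference was -1.26 in the deep and -0.31 in the shallow set. MiR-34a-5p, which many cell types express, changed sign between sets, at -0.69 and 0.18 (-0.24 with the set term).

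The list of choroid plexus and ependymal miRNAs, which adds both arms of miR-34b and miR-34c and the choroid plexus miRNA miR-204-5p, had 7 tested members of 10 in the table. All 7 were lower with an unadjusted p under 0.05 (9.91% of the table), none passed, and the median was -1.88, or -0.67 with the set term. MiR-204-5p, encoded within Trpm3, had 5104, 7753, 5560.3 and 4393 CPM in DMSO 1 to 4 and 1798 to 4799.6 CPM in DHPG, with a median of 3646 (-0.70 ± 0.25, adjusted p = 0.222). The groups overlapped, and the differences were -0.47 in the deep and -0.69 in the shallow set. In bulk RNA, fewer cells of a type and less RNA per cell cannot be told apart.

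Markers of these cells were also measured in the total RNA libraries. The ependymal mRNAs Foxj1, Ccdc153 and Tmem212 summed to 24.0 CPM in DMSO 1, 89.6 to 192 in DMSO 2 to 4, 7.44 to 27.3 in DHPG 1 to 5 and 59.0 in DHPG 6. The sum has the order seen for miR-34c-5p and miR-449a-5p, with DMSO 1 low and DHPG 6 highest of its group. Most of it was Foxj1 (21.7 of 24.0 CPM in DMSO 1). Tmem212 also was highest of DHPG in DHPG 6, while Ccdc153 was slightly higher in DHPG 2 (1.76 CPM) than in DHPG 6 (1.75 CPM). The choroid plexus mRNAs Ttr, Folr1 and Kl summed to 85.8 to 180.4 in DMSO and 16.7 to 72.0 in DHPG. The sums did not overlap and DMSO 1 was lowest of its group, as for miR-448-3p and miR-1298-5p. Those 2 miRNAs were singled out because their groups did not overlap, so sharing that trait shows no link. Most of the choroid plexus sum was Ttr (79.6 of 85.8 CPM in DMSO 1). Within DHPG the orders differed, with Ttr highest in DHPG 5 (70.4 CPM), miR-448-3p in DHPG 6 and miR-1298-5p in DHPG 3. Folr1 was lowest of DMSO in DMSO 4, and Kl overlapped (0.76 to 1.29 in DMSO, 0.52 to 0.80 in DHPG). The choroid plexus miRNA miR-204-5p also overlapped and was lowest of DMSO in DMSO 4. All 6 markers had counts in both groups. Their part in the miRNA differences was not tested.

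The mural cell and fibroblast miRNAs miR-199a-3p and miR-143-3p followed the order of miR-34c-5p, with DMSO 1 lowest and DHPG 6 highest of its group. MiR-10b-5p did not, being highest of all libraries in DMSO 1 (14.6 CPM) and lowest in DHPG 6 (3.94 CPM). The list's 5 tested members of 12 in the table were all below 0. At an unadjusted p under 0.05, 3 were lower (9.91% of all miRNAs), and the median was -1.43 (-0.48 with the set term). MiR-199a-3p had 51.7, 313, 144.3 and 127 CPM in DMSO 1 to 4 and 23.0 to 134.4 CPM in DHPG, where only DHPG 6 exceeded 45.0 CPM (-1.59 ± 0.56, adjusted p = 0.222; -0.53 with the set term). MiR-143-3p, abundant in smooth muscle, had 344, 2141, 946 and 785 CPM in DMSO and 225 to 893 CPM in DHPG (-1.43 ± 0.53, adjusted p = 0.241; -0.38 with the set term).

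Of the 8 astrocyte-enriched miRNAs all were below 0, against 279 of all 535, and 7 had an unadjusted p under 0.05 (9.91% of all miRNAs on that side), with a median of -0.80 (-0.31 with the set term). This list shares miR-449a-5p, miR-204-5p and miR-143-3p with the lists above. Among its other members, miR-27a-3p had 163, 405, 358 and 318 CPM in DMSO 1 to 4 and 129.7 to 262 CPM in DHPG, with a median of 149 (-0.89 ± 0.25, adjusted p = 0.207; -0.29 with the set term). MiR-21a-5p, high in reactive glia, had -0.37 ± 0.15, miR-23a-3p had -0.36 ± 0.14 and miR-32-5p had -0.98 ± 0.39. With the set term these were -0.34, -0.19 and -0.23.

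MiR-27a-3p and miR-24-2-5p (-0.76 ± 0.22, or -0.34 with the set term) are cut from 1 cluster on chromosome 8, and for both DMSO 1 lay in the DHPG range. The related cluster on chromosome 13 gave miR-27b-5p, which was among the 3 miRNAs higher in every DHPG library. It had 47.1, 44.7, 40.1 and 39.0 CPM in DMSO 1 to 4 and 47.7 to 58.9 CPM in DHPG (0.32 ± 0.14, adjusted p = 0.274). Across the 8 tested members of the miR-23, miR-27 and miR-24 list 4 were above and 4 below 0.

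**Figure D4:**
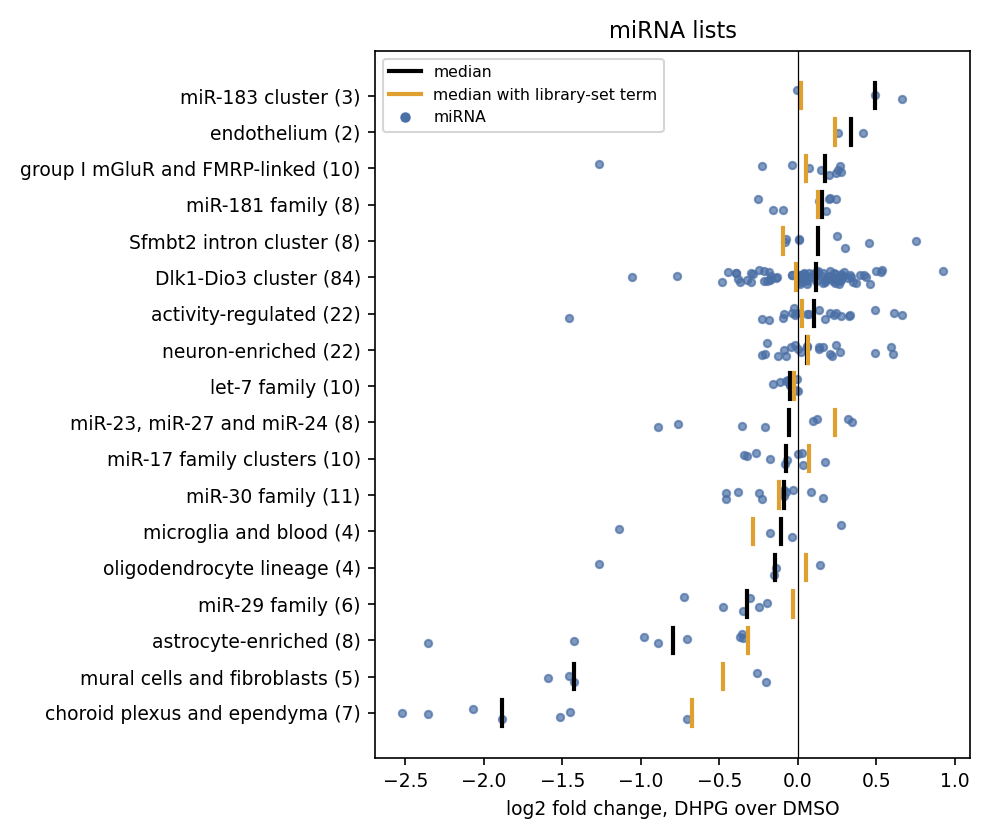
Log2 fold change of DHPG over DMSO for the tested members of each miRNA list with at least 2 of them (number in brackets), with the median in black and the median from the fit with the library-set term in orange. The choroid plexus and ependyma, mural cell and fibroblast, and astrocyte-enriched lists lie lowest and move toward 0 with the set term.

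Further miRNAs of smallest p were scarce ones linked to other cells. MiR-219a-5p, which promotes oligodendrocyte differentiation, had 3.92, 8.63, 7.37 and 9.37 CPM in DMSO 1 to 4 and 1.07 to 4.88 CPM in DHPG (-1.27 ± 0.32, adjusted p = 0.203; -0.95 with the set term). Of the other oligodendrocyte markers, miR-338-3p had -0.15 ± 0.14 (0.01 with the set term). MiR-219a-2-3p overlapped widely, with 1.43 to 20.6 CPM in DMSO and 2.14 to 42.1 CPM in DHPG (-0.14), highest in DHPG 1. The list's 4 tested members had a median of -0.14.

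MiR-155-5p, induced in activated immune cells, had 10.3, 24.5, 15.6 and 13.2 CPM in DMSO and 4.07 to 10.7 CPM in DHPG (-1.14 ± 0.30, adjusted p = 0.207). DMSO 1 lay just under DHPG 2, the highest DHPG library, and set differences were -0.77 and -0.68. Of the 5 microglial and blood markers, miR-142a-5p had 7.26 to 11.1 CPM in DMSO and 3.75 to 15.9 CPM in DHPG. The others, miR-142a-3p, miR-223-3p, miR-144-3p and miR-451a, had at most 2.24 CPM in any library. The wider microglia and blood list had 4 tested members and a median of -0.11 (-0.29 with the set term). At an unadjusted p under 0.05, 1 was higher and 1 lower (miR-155-5p), against 5.23% and 9.91% of all miRNAs. The higher one, miR-486a-5p, had a log2 fold change of 0.28 (edgeR adjusted p = 0.293). Values for the last members of the 16 with smallest p were -0.95 ± 0.26 for miR-339-5p, -0.80 ± 0.23 for miR-152-5p, -0.90 ± 0.27 for miR-872-3p, -0.86 ± 0.26 for miR-1194 and -1.46 ± 0.46 for miR-199a-5p. With the set term these were, in the same order, -0.43, -0.34, -0.23, -0.86 and -0.48.

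Among the abundant miRNAs with a higher mean in DHPG was miR-127-3p, an imprinted miRNA antisense to Rtl1 in the Dlk1-Dio3 region. It had 121716, 38170.5, 51706 and 44560.2 CPM in DMSO 1 to 4. In DHPG 1 to 6 it had 124693, 140229.8, 138345, 125669, 124215 and 75823 CPM. DMSO 1 lay close to the shallow DHPG libraries, and DHPG 6 lay between them and the deep DMSO libraries. Its mean level was 64038 ± 38847 CPM in DMSO and 121496 ± 23477 CPM in DHPG (SD), the log2 fold change 0.92 ± 0.33 (adjusted p = 0.222). The difference was 0.77 in the deep set, 0.10 in the shallow set and 0.41 with the set term. The opposite arm, miR-127-5p, had 526 ± 79.5 CPM in DMSO and 463 ± 53.8 in DHPG (-0.18, or 0.01 with the set term).

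**Figure D5:**
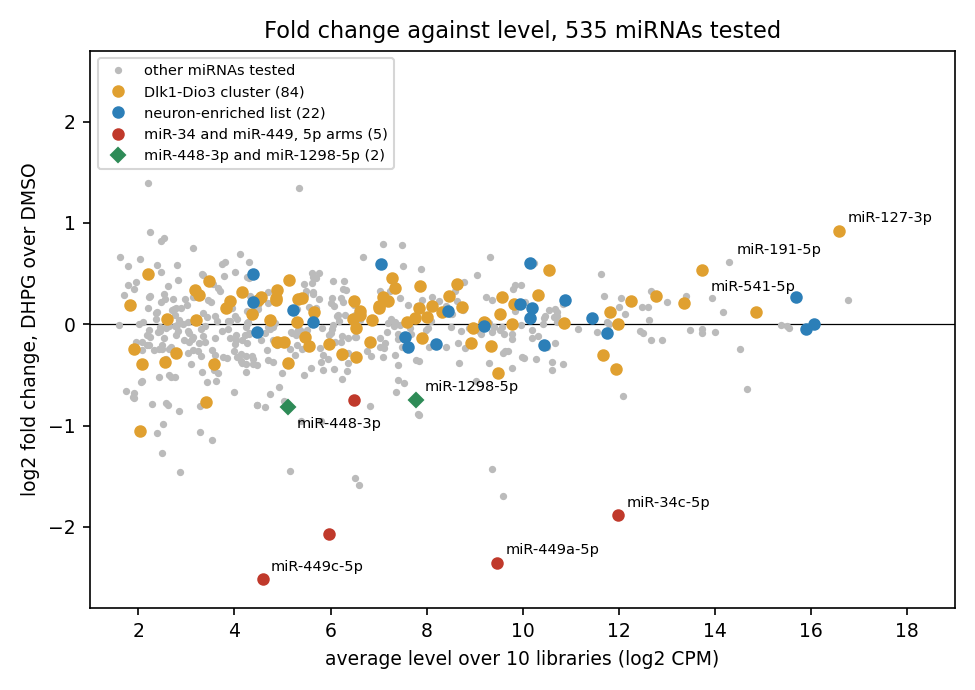
Log2 fold change of DHPG over DMSO against the average level in log2 CPM for the 535 miRNAs tested, with the Dlk1-Dio3 cluster, the neuron-enriched list, the miR-34 and miR-449 5p arms and the Htr2c strands miR-448-3p and miR-1298-5p coloured. The miR-34 and miR-449 arms lie between -2.52 and -0.75, and miR-127-3p at 0.92 is the highest of the abundant miRNAs.

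Of the Dlk1-Dio3 cluster, which holds the largest group of imprinted miRNAs and is transcribed in neurons from the maternal chromosome, 84 of 112 members in the table were tested. Of these 60 were above and 24 below 0, with a median of 0.12, and 2 were higher and 2 lower at an unadjusted p under 0.05, against 5.23% and 9.91% of all miRNAs. With the set term the median was -0.01. MiR-541-5p had 15710.0, 8495, 9131 and 9766 CPM in DMSO 1 to 4 and 12624 to 18938 CPM in DHPG, with a median of 15744 (0.54 ± 0.17, adjusted p = 0.214). Without DMSO 1 its groups would not meet, and its set differences were 0.47 and 0.04 (0.25 with the set term).

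Host transcripts of the cluster were measured in the total RNA libraries. Mirg, which carries miR-541 and its neighbours, had 15.5, 11.4, 13.2 and 15.6 CPM in DMSO 1 to 4 and from 18.4 to 26.4 in DHPG, so that the groups did not overlap. The 56 tested miRNAs with a matched sequence within the same stretch (chr12:109709065-109747949) had a median of 0.11, or -0.01 with the set term. Rian (284.8 to 422 in DMSO, 361 to 419 in DHPG) and Meg3 (54.0 to 101 and 52.2 to 118) overlapped. These host levels are descriptions and were not tested here.

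MiR-191-5p, cut with miR-425-5p from the gene Dalrd3 on chromosome 9, had 24252, 10077, 14679 and 11837 CPM in DMSO 1 to 4 and 17660.2 to 25449 CPM in DHPG, with a median of 24189 (0.61 ± 0.22, adjusted p = 0.222). DMSO 1 again lay with the shallow DHPG libraries, and the set differences were 0.55 and 0.01 (0.26 with the set term). MiR-425-5p was higher in every DHPG library by a small amount, at 319, 296, 329.8 and 302 CPM in DMSO and 331 to 382 CPM in DHPG (0.18 ± 0.11, adjusted p = 0.399). MiR-138-2-3p, the minor arm of a neuronal hairpin whose major arm limits spine size, had 18.9, 12.6, 17.0 and 17.97 CPM in DMSO and 19.7 to 26.4 CPM in DHPG (0.49 ± 0.17, adjusted p = 0.222). Its differences were 0.32 and 0.34 within the sets.

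The activity-regulated miRNAs, which change with firing, plasticity or CREB signalling in other settings, gave 0 calls over 22 tested, with 1 higher and 1 lower (miR-199a-5p) at an unadjusted p under 0.05, against 5.23% and 9.91% of all. Their median was 0.10. MiR-132-3p, a CREB target that promotes dendrite growth, had 2049, 1382, 1707 and 1693 CPM in DMSO 1 to 4 and 1842 to 2356 CPM in DHPG (0.24 ± 0.12, adjusted p = 0.355). DMSO 1 lay inside the DHPG range, and the difference was 0.22 in the deep and 0.00 in the shallow set. MiR-212-3p, from the same cluster, had 0.13 ± 0.11 (0.08 with the set term) and overlapped.

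Their host transcript 1700016P03Rik had 0.41, 1.80, 0.68 and 0.90 CPM in the total RNA of DMSO 1 to 4 and from 1.39 to 5.37 in DHPG. Only DHPG 5 lay under the highest DMSO library, DMSO 2. The host RNA was not tested here. In the miR-183 cluster, known for activity-dependent turnover, miR-183-5p had 1316, 86.3, 273 and 224 CPM in DMSO and 363 to 1382 in DHPG. Its difference was 1.79 in the deep and -0.95 in the shallow set (0.66 ± 0.71, adjusted p = 0.648; 0.34 with the set term).

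Of 10 miRNAs linked to group I mGluR signalling or to FMRP none passed, 2 were higher and 1 lower (miR-219a-5p, given above) at an unadjusted p under 0.05 (5.23% and 9.91% of all), and the median was 0.17 (0.05 with the set term). MiR-125a-5p, which represses PSD-95 translation together with FMRP, had 11595, 8195, 10102 and 8715 CPM in DMSO 1 to 4 and 9383 to 13316 CPM in DHPG (0.27 ± 0.12, adjusted p = 0.293). Its groups overlapped, and the difference was 0.07 in the deep and 0.06 in the shallow set. Values were 0.26 ± 0.14 for miR-125b-5p, 0.27 ± 0.10 for miR-128-3p, 0.20 ± 0.09 for miR-181d-5p, 0.07 ± 0.13 for the dendritic miR-134-5p, -0.23 ± 0.18 for miR-137-3p and -0.03 ± 0.19 for miR-146a-5p. With the set term these were 0.01, 0.13, 0.19, -0.01, 0.04 and 0.00.

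The abundant miRNAs of neurons were close to level. The neuronal markers miR-124-3p, miR-128-3p, miR-138-5p, miR-218-5p and miR-9-5p summed to 112769 to 122994 CPM in DMSO and 115879 to 135223 in DHPG, and all 5 were present in every library. MiR-124-3p, the most specific of them, had 2677, 2339, 3056 and 2783 CPM in DMSO 1 to 4 and 2446 to 3074 CPM in DHPG (0.06 ± 0.11, or -0.06 without TMM scaling), and miR-9-5p had -0.04 ± 0.09 (0.05 with the set term). Over 22 neuron-enriched miRNAs the median was 0.06, and 4 were higher and 0 lower at an unadjusted p under 0.05, against 5.23% and 9.91% of all. MiR-330-3p was one of the 4 (0.59 ± 0.19, adjusted p = 0.214; 0.31 with the set term), with DMSO 1 (147 CPM) at the level of DHPG.

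The 10 most abundant miRNAs took 55.9% to 58.6% of the counts of a DMSO library and 57.7% to 60.3% of those of a DHPG library, the lowest of each being a deep library. Of these, miR-181a-5p had 101399 ± 7362 CPM in DMSO and 119911 ± 12164 in DHPG (0.24 ± 0.09, adjusted p = 0.222; 0.15 with the set term). MiR-22-3p had 68973 ± 3201 and 68972 ± 4506 CPM, a log2 fold change of -0.00 ± 0.07 (-0.08 with the set term). Values were -0.64 ± 0.28 for miR-92b-3p, 0.12 ± 0.13 for miR-434-3p, -0.04 ± 0.09 for let-7f-5p, -0.02 ± 0.11 for miR-26a-5p and -0.01 ± 0.10 for let-7c-5p. With the set term these were -0.23, 0.02, -0.05, 0.04 and 0.01.

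After miR-34 and miR-449, the seed families with the lowest medians were AUUGCAC and AGCAGCA. The former (miR-25-3p, miR-32-5p, miR-92a-3p and miR-92b-3p) had a median of -0.48, from -0.98 to 0.17, with 2 of 4 at an unadjusted p under 0.05 (15.1% of all). The latter, the miR-15 and miR-16 strands with miR-195a-5p, miR-322-5p and miR-497a-5p, had a median of -0.39, from -0.67 to 0.26, with 3 of 6 at that limit. Their medians were -0.13 and -0.08 with the set term. Of 13 seed families with at least 3 tested members that matched a sequence, 3 had every such member below and 2 every such member above 0. The 9 tested let-7 members with the seed GAGGUAG, differentiation miRNAs of high level, lay between -0.16 and 0.00. The miR-29 strands with the seed AGCACCA lay between -0.48 and -0.31, and at a median of 0.00 with the set term. MiR-125a-5p, miR-125b-5p and miR-351-5p, with the seed CCCUGAG, lay between 0.08 and 0.27, with a median of 0.26 (0.06 with the set term).

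List medians for the other groups were -0.07 for the miR-17 family clusters (10 tested), -0.09 for miR-30 (11), 0.16 for miR-181 (8), 0.13 for the Sfmbt2 intron cluster (8 of 68 in the table) and 0.34 for endothelium (2). None of these lists had a call, and the miR-200 family had 0 tested. Arms were paired only where both were tested and matched a sequence, and a strand made by 2 hairpins could enter 2 pairs. Of the 153 hairpins paired in this way, 98 had arms on the same side of 0, with r = 0.49 between the arms across hairpins. MiR-448, miR-1298 and miR-127 were among those whose arms fell on opposite sides. With the set term the arms of miR-448 and of miR-127 fell on the same side, and those of miR-1298 still on opposite sides.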

How the data were processed

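The submitters' processing notes name Salmon, DESeq and the build GRCm38. For tool versions and the small RNA library kit, the sources used here give nothing. The deposited values are estimated counts (3.68% not whole) and were rounded to whole numbers. The authors' deposited table gives log2 fold changes, p-values and adjusted p-values, quoted only where it is named. Control columns were matched to DMSO samples by number, and log2 values recomputed here and the authors' correlated at 0.9997 over the 535 miRNAs.

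The 4 DMSO and 6 DHPG miRNA libraries were fitted alone in edgeR 4.0.16 (R 4.3.3; robust quasi-likelihood F test, TMM factors, filterByExpr with a minimum count of 10, Benjamini-Hochberg limit 0.05), after a check on simulated data. CPM uses TMM-scaled totals, and log2 CPM a prior count of 2. Total RNA levels are CPM of all deposited counts. Library sets were split at 30000000 total RNA counts. With a biological coefficient of variation of 0.254 and 8 residual degrees of freedom, small changes are beyond the precision of this design. DESeq2 1.42.0 and limma 3.58.1 were alternatives. No pair of libraries agreed within counting noise (chi-square per degree of freedom at least 10.7).

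The members and lists were chosen with earlier results of these data known. Named were the 16 miRNAs of smallest p, the 10 most abundant, the 2 of smallest p per list and 9 fixed miRNAs. MiRNAs sharing their hairpin, host gene or seed, those whose groups did not overlap, those called by the authors and the total RNA genes were added after their values were seen.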

Additional observations from a re-analysis of the deposited data

Results flagged for a closer look

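Dixon's criterion was applied to the 4 DMSO and to the 6 DHPG libraries of each named miRNA, 118 groups in all, and 9 had a library apart from the others. Chance gives about 1 in 20. DHPG 6 was the library apart in 5 of them. It was lowest of the DHPG libraries for miR-127-3p (75823 CPM, next 124215), miR-22-3p (60157, next 68754), miR-191-5p (17660.2, next 22660.5) and miR-125b-5p (13497, next 16852). It was highest for miR-25-3p (1277, next 917). DHPG 3 was highest for let-7c-5p (50342, next 42155) and lowest for miR-466a-3p, at 0 CPM against 5.06 in the next library. Among the DMSO libraries DMSO 1 was lowest for miR-106b-5p (36.7, next 76.1) and DMSO 2 highest for miR-135a-2-3p (41.0, next 24.7).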

How the results depend on the processing

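The count of 0 stayed at 0 with DESeq2 size factors, without TMM, with a minimum count of 5 or 50, in the fits that add the FSK libraries and in those with the library-set term. It was 6 with the DESeq2 Wald test, 142 with limma-voom and 11 without a filter (1 higher, 10 lower). Leaving out 1 library gave 0 to 56, with 56 without DMSO 1 (18 higher, 38 lower) and 0 for each of the other 9. The cause of these differences was not tested. Without TMM the median of all fold changes moved from -0.02 to -0.14, and the split at an unadjusted p under 0.05 from 28 higher and 53 lower to 11 and 88. The replicate block over DMSO 1 to 4 and DHPG 1 to 4 gave 0 calls and 52 at an unadjusted p under 0.05, against 0 and 96 for the same libraries without it. The deviations of same-numbered libraries correlated at -0.39 to -0.084. DMSO 1 to 4 span both library sets while DHPG 1 to 4 are all shallow, so these correlations cannot show whether the numbers pair the samples.

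Of 818 values of the 59 named miRNAs under the alternatives other than leaving out a library, 727 kept their direction and side of the limit, 47 passed the limit and 44 changed sign. The log2 fold changes that changed sign follow. With DESeq2 size factors they were miR-22-3p 0.043, let-7f-5p 0.0033, miR-26a-5p 0.018, let-7c-5p 0.034 and miR-146a-5p 0.0030. Without TMM miR-134-5p was at -0.048 and miR-124-3p at -0.059. With the DESeq2 Wald test they were miR-22-3p 0.031, miR-26a-5p 0.0079 and let-7c-5p 0.021. With limma-voom they were miR-22-3p 0.041 and let-7f-5p 0.034. With a minimum count of 50 miR-22-3p was at 0.00083. With all 16 miRNA libraries fitted it was at 0.0053. With all but FSK 4 and FSK 5 it was at 0.00042. With the replicate block they were miR-22-3p 0.032, let-7c-5p 0.00080 and miR-146a-5p 0.0058. With the same 8 libraries and no block they were miR-22-3p 0.031, let-7c-5p 0.0011 and miR-146a-5p 0.043. With the library-set term they were miR-9-5p 0.048, miR-26a-5p 0.035, let-7c-5p 0.0054, miR-98-5p 0.011, miR-106b-5p 0.12, miR-338-3p 0.012, miR-134-5p -0.0058, miR-137-3p 0.041 and miR-146a-5p 0.00075. With that term and all 16 libraries they were miR-27a-3p 0.056, miR-22-3p 0.037, miR-128-3p -0.034, miR-26a-5p 0.072, miR-25-3p 0.086, miR-106b-5p 0.085, miR-338-3p 0.055, miR-133a-3p 0.044 and miR-146a-5p 0.54. With that term and without FSK 4 and FSK 5 they were miR-26a-5p 0.0057, miR-106b-5p 0.041, miR-338-3p 0.071, miR-137-3p 0.059 and miR-146a-5p 0.0053. Leaving out 1 library changed a sign for 7 miRNAs, whose ranges were miR-22-3p -0.016 to 0.058, miR-9-5p -0.088 to 0.0097, let-7f-5p -0.080 to 0.061, miR-26a-5p -0.059 to 0.083, let-7c-5p -0.067 to 0.059, miR-133a-3p -0.61 to 0.014 and miR-146a-5p -0.19 to 0.069. For miR-448-3p the range was -0.91 to -0.70, for miR-1298-5p -0.83 to -0.64, for miR-34c-5p -2.21 to -1.43 and for miR-127-3p 0.74 to 1.43.

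The shallow set has 1 DMSO library and the deep set 1 DHPG library, so set and treatment are largely tied, and the set itself is carried over from total RNA by number. Depth limits the scarce miRNAs: miR-1251-5p and miR-219a-5p rest on few counts per library.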
